A study of Mus musculus with 10 samples.

Results

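The genes described here are the mouse histone genes whose messages are made mainly while DNA is copied. They were chosen by name from the protein-coding rows of an expression table of 26360 genes, measured in RPE/choroid/sclera, the outer wall of the eye with its pigmented epithelium and vascular layer. The rule asked for symbols beginning with Hist1h, Hist2h, Hist3h or Hist4h, and otherwise for the newer symbols beginning with H1f, H2ac, H2bc, H3c or H4c and ending in digits. The table mixes both systems, with 8 rows under the older symbols (Hist1h2an, Hist1h2ao, Hist1h2ap, Hist1h2bp, Hist1h2bq, Hist1h2br, Hist1h4m and Hist1h4n) and 55 under the newer ones. All 63 rows are used, and counts for the 8 older symbols, which the first pattern alone would have kept, are given beside those for the whole. The newer pattern also caught H1f0 and H1f10, linker histones made outside DNA replication. Counts and sums below are therefore over the other 61 genes, except where the 63 rows are named, and H1f0 and H1f10 are given apart. The 63 rows had the same start and end as a gene of the GENCODE M21 annotation, in which the 61 carry Hist names.

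The samples were 10 libraries from 5 wild-type C57BL/6J mice at postnatal day 34, 1 library from the left and 1 from the right eye of animals 61, 64, 65, 66 and 68. From postnatal day 24 a goggle with a lens of -20 dioptres had been fixed over one eye of each mouse for 10 days to induce myopia, and the fellow eye wore none. The labels used here name left and right eyes but not which eye wore the lens, so the 2 groups are the left eyes (n = 5) and the right eyes (n = 5), and the sign of a right-minus-left difference carries no treatment meaning. Each library was made from 1 µg of total RNA by depletion of ribosomal RNA with a strand-keeping kit, without selection for poly(A) tails.

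Replication-dependent histone genes encode the linker histone H1 and the core histones H2A, H2B, H3 and H4, around which DNA is wound into nucleosomes. They lie in clusters, lack introns, and give messages that end in a conserved stem-loop in place of a poly(A) tail. The stem-loop is bound by SLBP, and the messages are cut behind it with the help of U7 snRNP, accumulate in S phase and are broken down when it ends. Replacement histones such as H3f3b, by contrast, are made throughout the cell cycle from polyadenylated messages.

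The values were deposited as CPM, the reads of a gene scaled to the total of its library. The step between low values put the libraries at 66889400 to 94239100 reads, and the limit set by 3 reads was 0.0318 to 0.0449 CPM. The listed genes held 42.7% to 47.1% of each library, with the lowest share in the left eye of animal 65. The pairwise comparison of libraries found no duplicate. Summed markers of the pigmented epithelium ranged from 4629 to 6414 CPM and of scleral fibroblasts from 7668 to 10702 CPM. Rod markers summed to 1644 CPM in the right eye of animal 68 and to 113 to 790 CPM in the other libraries, and lens markers to 758 CPM in the right eye of animal 65 and to 79.2 to 318 CPM elsewhere. Markers of the ocular surface epithelium summed to 114 to 863 CPM and of red cells to 575 to 1253 CPM.

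The stem-loop was searched for in the GENCODE M21 transcripts as a perfectly paired stem of 6 bases around a loop of 4 bases. The stem had to begin with GG and the loop with TTT, so the search itself set these letters in every form below. Such a stem-loop was held by 40 of the 61 genes, against 68 of 21901 protein-coding genes (0.3105%) in all. The sequences are shown because they separate the H4 genes from the other classes. Capitals mark the paired stem and lower case the loop.

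H1, H2A, H2B and H3 form (23 genes, H1f2, H2ac19, H2bc6 and H3c2 among them): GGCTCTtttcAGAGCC
H4 form (6 genes, H4c3, H4c4, H4c6, H4c8, Hist1h4m and Hist1h4n): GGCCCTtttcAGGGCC
Form with another loop (6 genes, H1f6, H2bc3, H2bc12, H3c3, H3c6 and H3c7): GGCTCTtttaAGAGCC
Form of H4c9 and H4c14: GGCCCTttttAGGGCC
Form of H4c2 and H4c11: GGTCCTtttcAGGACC
Form of H2ac20: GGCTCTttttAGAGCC

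The 10 H4 genes with a stem-loop used 3 forms that no H1, H2A, H2B or H3 gene of the set used. Among the 8 older symbols, 5 held a stem-loop, and Hist1h2an, Hist1h2bq and Hist1h2br did not. In 21 genes the annotated transcripts held no such stem-loop, and several of these are annotated as little more than their coding sequence, such as H2bc18 with 381 bases. In 18 of the 40 genes the annotated transcript went on for at least 100 bases behind the stem-loop, the farthest in H1f3 (4884 bases), H2ac6 (2010 bases), H2bc6 (1861 bases) and H4c14 (1257 bases). The median of the mean levels was 3.15 CPM in these 18 genes, 0.715 CPM in the 22 genes annotated to end within 100 bases and 0.719 CPM in the 21 genes without a stem-loop. These medians are of CPM, which grows with the annotated length.

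Promoters of 57 of the 63 rows were found in the RefSeq table (GRCm38.p6, 250 bases before to 50 bases after the start). Letters were searched on both strands, and a site between divergent genes could count for both, as did the octamer of H2ac8 and H2bc8. TATAAA stood in 32 of 57 (56.1%) against 13.6% of all 32851 promoters, CCAAT in 47 (82.5%) against 37.4%, and the octamer ATTTGCAT in 10 (17.5%) against 1.74%. By class, TATAAA stood in 4 of 8 H1, 10 of 15 H2A, 6 of 14 H2B, 4 of 9 H3 and 8 of 11 H4 promoters. CCAAT was present in 6 of 8 H1, 15 of 15 H2A, 14 of 14 H2B, 9 of 9 H3 and 3 of 11 H4 promoters, and the octamer was found in 5 H2A and 5 H2B promoters and in none of H1, H3 or H4. The H1 promoters without CCAAT were those of H1f0 and H1f10, which held none of the 3 motifs. One stretch of 150 upstream bases is shown for 4 classes, H2bc8 standing for the shared H2A and H2B promoters. Capitals mark these 3 motifs, in either direction.

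H1f4 (chr13:23622559-23622708, minus strand): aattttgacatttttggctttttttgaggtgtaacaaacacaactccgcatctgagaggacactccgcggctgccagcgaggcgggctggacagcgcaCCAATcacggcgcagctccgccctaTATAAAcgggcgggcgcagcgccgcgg
H2bc8 (chr13:23571250-23571399, plus strand): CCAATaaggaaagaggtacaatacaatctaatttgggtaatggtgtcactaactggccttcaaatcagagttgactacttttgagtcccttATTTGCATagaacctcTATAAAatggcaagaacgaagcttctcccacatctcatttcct
H3c2 (chr13:23752195-23752344, plus strand): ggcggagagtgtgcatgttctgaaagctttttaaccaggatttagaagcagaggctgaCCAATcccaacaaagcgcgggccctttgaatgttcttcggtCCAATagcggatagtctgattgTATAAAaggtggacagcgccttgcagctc
H4c8 (chr13:23530894-23531043, plus strand): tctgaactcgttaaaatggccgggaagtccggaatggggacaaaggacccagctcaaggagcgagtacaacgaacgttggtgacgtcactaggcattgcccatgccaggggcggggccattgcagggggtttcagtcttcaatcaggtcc

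H4c8, which drew 20.6 CPM, held none of these letters in the stretch. The H2bc8 stretch fills most of the 175 bases between H2bc8 and its divergent neighbour H2ac8. It ends before the RefSeq start of H2bc8, and its last bases lie past the start in the deposited table (chr13:23571396). The stretches of Hist1h2bq and Hist1h2br were identical over the 150 bases.

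Histone reads were spread unevenly over the genes of each class. The 61 genes summed to a mean of 218 CPM per library, of which 5 genes held 48.0%, 10 genes 73.0% and 20 genes 88.1%. The most reads fell on H4c4 (23.7 CPM), H1f2 (21.8 CPM), H2bc4 (21.2 CPM), H4c8 (20.6 CPM) and H2ac19 (17.3 CPM), while 33 genes had a mean below 1 CPM and 9 below 0.1 CPM. CPM counts reads, and a longer gene draws more of them, so levels are compared between genes only per kilobase and only for genes shorter than 1000 bases. Since the tissue was measured in bulk, a low value can stand for few cells in S phase or for little RNA per cell, and these cannot be told apart.

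**Figure D1:**
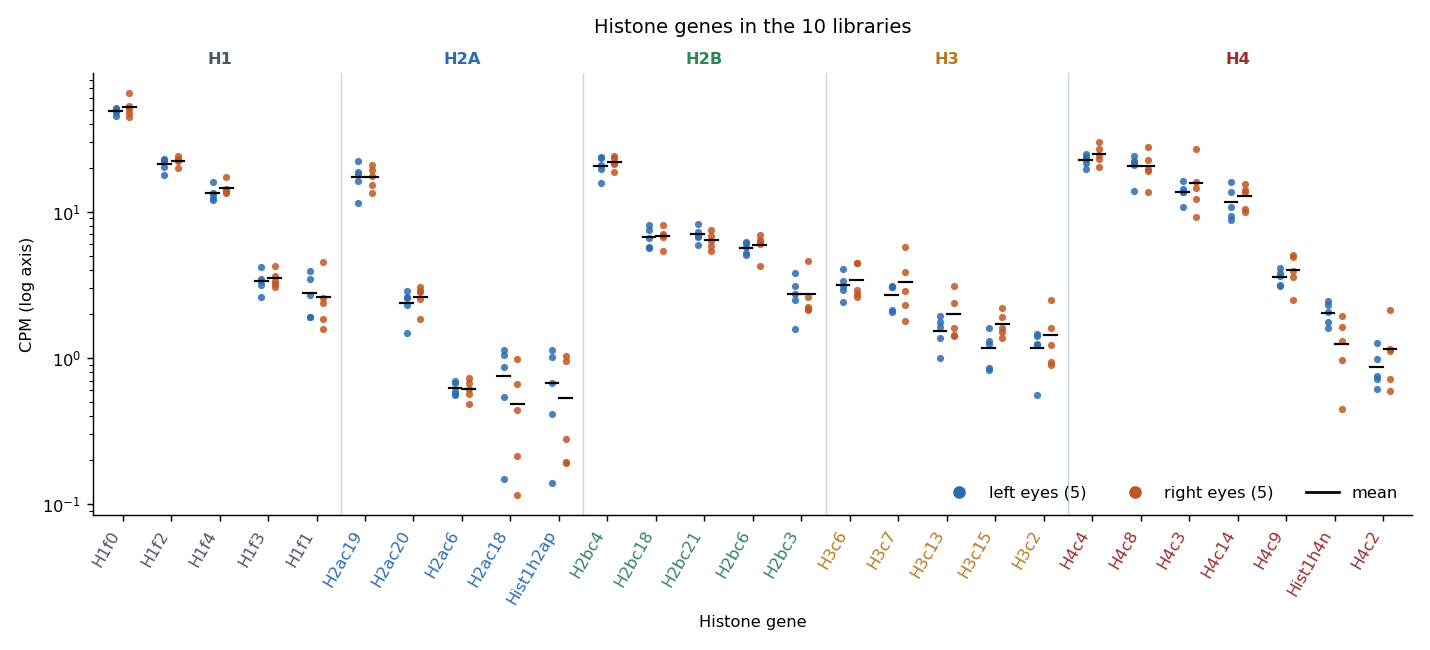
CPM (log axis) of the 27 histone genes described by name, grouped by class, in the 5 left eyes (blue) and the 5 right eyes (orange), with bars at the means. Each class holds at least 1 gene with a mean above 5 CPM except H3, whose highest mean is 3.30 CPM, and the left and right points overlap for every gene shown.

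The linker histone genes, which bind the DNA between nucleosomes, summed to 37.7 to 49.1 CPM per library over 6 genes, and H1f2 and H1f4 held 82.4% of the class mean. H1f2 (chr13:23738808-23740367) measured 22.7, 21.9, 17.9, 22.9 and 20.4 CPM in the left eyes of animals 61, 64, 65, 66 and 68 and 22.3, 19.9, 24.00, 22.99 and 22.6 CPM in the right eyes. Its lowest value was that of the left eye of animal 65, and the other 9 values lay within 19.9 to 24.0 CPM. H1f4 (chr13:23620629-23622558) measured 12.1, 15.9, 12.4, 13.4 and 13.2 CPM in the left eyes, in the same order, and 13.8, 13.5, 17.4, 14.2 and 14.03 CPM in the right eyes. The highest H1f4 value was in the right eye of animal 65, which stood apart from the other right eyes. H1f3 ranged over 2.62 to 4.28 CPM, H1f1 over 1.59 to 4.54 CPM and H1f5 over 0.434 to 2.28 CPM. H1f6, the linker histone of the testis, was at a mean of 0.0696 CPM and listed at 0 in 2 libraries. H1f0, the linker histone of resting cells, measured 48.8 ± 2.39 CPM in the left and 52.1 ± 7.95 CPM in the right eyes (SD, n = 5 each) and reached 65.03 CPM in the right eye of animal 65. H1f10 had a mean of 0.0979 CPM.

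Among the 16 H2A genes, H2ac19 and H2ac20 held 87.4% of the class mean and were the 2 that reached a mean of 1 CPM. H2ac19 (chr3:96239749-96240276) measured 16.2, 18.03, 11.5, 18.6 and 22.4 CPM in the left eyes of animals 61, 64, 65, 66 and 68 and 13.4, 15.3, 20.99, 19.3 and 17.6 CPM in the right eyes. The left eyes spanned the wider range, with the left eye of animal 65 lowest and the left eye of animal 68 highest of all 10. H2ac20 (chr3:96220361-96220880) measured 2.28, 2.89, 1.48, 2.62 and 2.55 CPM in the left eyes, in the same order, and 1.86, 2.52, 2.85, 2.81 and 3.06 CPM in the right eyes. Its values were again lowest in the left eye of animal 65. H2ac6 ranged over 0.482 to 0.732 CPM, H2ac18 over 0.115 to 1.13 CPM and Hist1h2ap over 0.139 to 1.13 CPM, and 7 H2A genes had means below 0.1 CPM. Per kilobase of gene, over the 15 H2A genes shorter than 1000 bases, H2ac19 stood at 32.8 CPM per kb and the class median at 0.257 CPM per kb.

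The 16 H2B genes summed to 43.2 to 58.3 CPM per library, and 6 reached a mean of 1 CPM. H2bc4 (chr13:23684199-23692908) measured 20.8, 19.7, 15.8, 23.7 and 23.4 CPM in the left eyes of animals 61, 64, 65, 66 and 68 and 21.1, 18.7, 23.4, 24.3 and 21.7 CPM in the right eyes. Apart from the left eye of animal 65 its values lay between 18.7 and 24.3 CPM. H2bc18 ranged over 5.40 to 8.08 CPM, H2bc21 over 5.41 to 8.31 CPM and H2bc6 over 4.25 to 6.93 CPM. The deposited span of H2bc6 covers 37455 bases and overlaps 496 bases of H1f4 on the same strand, so reads there cannot be told apart by strand. H2bc3 measured 1.57, 3.08, 2.48, 2.74 and 3.83 CPM in the left eyes, in the same order, and 2.22, 2.15, 2.61, 2.14 and 4.63 CPM in the right eyes. Both eyes of animal 68 were the highest for H2bc3. Per kilobase, H2bc18 stood at 17.8 CPM per kb against a median of 1.67 CPM per kb over the 9 short H2B genes.

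The H3 genes, whose protein carries many of the marks that set chromatin state, drew 10.7 to 21.1 CPM per library over 11 genes. H3c6 (chr13:23561534-23562369) measured 2.89, 3.36, 2.43, 4.07 and 3.09 CPM in the left eyes of animals 61, 64, 65, 66 and 68 and 2.60, 2.93, 4.44, 2.73 and 4.43 CPM in the right eyes. The right eyes of animals 65 and 68 were the highest for H3c6, at nearly the same value. H3c7 ranged over 1.79 to 5.78 CPM, with the highest value in the right eye of animal 68, H3c13 over 0.997 to 3.10 CPM and H3c2 over 0.555 to 2.49 CPM. The highest H3c13 and H3c2 values were both in the right eye of animal 65. Per kilobase the 8 short H3 genes lay between 0.402 and 3.94 CPM per kb, all below the 32.8 CPM per kb of H2ac19.

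The 12 H4 genes drew 65.4 to 116 CPM per library, more reads than any other class in each library, and 10 of the 12 reached a mean of 1 CPM. H4c4 (chr13:23581598-23582735) measured 21.7, 24.7, 19.7, 23.7 and 23.1 CPM in the left eyes of animals 61, 64, 65, 66 and 68 and 20.2, 22.9, 29.99, 24.5 and 26.8 CPM in the right eyes. H4c8 (chr13:23531050-23531519) measured 20.9, 24.1, 13.8, 22.4 and 21.7 CPM in the left eyes, in the same order, and 13.6, 19.7, 22.6, 19.1 and 27.6 CPM in the right eyes. The lowest H4c8 values were those of the left eye of animal 65 and the right eye of animal 61, and the highest that of the right eye of animal 68. H4c3 (chr13:23697635-23698454) measured 13.8, 16.3, 10.8, 14.2 and 13.7 CPM in the left eyes, in the same order, and 9.25, 14.5, 15.98, 12.3 and 26.8 CPM in the right eyes. The right eye of animal 68 stood well above the other 9 libraries for H4c3. H4c14 ranged over 8.76 to 15.9 CPM and H4c9 over 2.49 to 5.09 CPM. Per kilobase H4c8 was the highest of the short histone genes at 43.7 CPM per kb, H4c3 stood at 17.998 CPM per kb, and the class median over 10 genes was 4.75 CPM per kb.

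The 8 older symbols all lie between chr13:21715763 and chr13:21837530 and summed to 4.67 to 9.85 CPM. Hist1h4m, an H4 gene, measured 3.42, 3.48, 1.86, 4.61 and 3.51 CPM in the left eyes of animals 61, 64, 65, 66 and 68 and 1.81, 3.48, 5.02, 3.12 and 4.88 CPM in the right eyes. Hist1h4n, its near-identical neighbour, measured 1.77, 2.45, 2.07, 1.59 and 2.30 CPM in the left eyes, in the same order, and 1.62, 1.30, 0.449, 0.961 and 1.92 CPM in the right eyes. Hist1h4n was lower in the right than in the left eye of each animal, most of all in animal 65. Hist1h2bq ranged over 0.502 to 1.59 CPM and Hist1h2br over 0.249 to 1.14 CPM. Hist1h2ap ranged over 0.139 to 1.13 CPM and Hist1h2ao over 0.0636 to 0.585 CPM, while Hist1h2an (mean 0.0602 CPM) and Hist1h2bp (mean 0.0750 CPM) were near the limit set by 3 reads. So 2 of the 8, Hist1h4m and Hist1h4n, reached a mean of 1 CPM.

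Reads were also uneven by position on the chromosome. The largest group, 29 genes at chr13:23531050-23764406, held 68.4% of the summed mean and 7 genes of at least 5 CPM, among them H4c4, H4c8, H1f2 and H2bc4. The 9 genes at chr3:96219865-96270132 held 22.7% and 4 genes of at least 5 CPM, led by H2ac19. The 18 genes at chr13:21715763-21837530 held 6.39% and none above 3.52 CPM, the value of Hist1h4m, and the 5 genes at chr13:22035164-22043676 held 2.53%. The chromosome 3 group was small, yet 7 of its 9 genes reached 1 CPM, against 4 of 18 in the group with the older symbols. These shares are descriptions, without a test.

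H2A and H2B genes often lie head to head and share the stretch between them. There were 11 such pairs, 175 to 301 bases apart. In 6 pairs both genes were shorter than 1000 bases, and per kilobase the H2B gene was the higher of the 2 in all 10 libraries in each of the 6. The pair shown above had 0.0454 CPM of H2ac8 and 2.07 CPM of H2bc8, or 0.0645 and 3.35 CPM per kb. H2ac12 and H2bc12 had 0.0282 and 1.67 CPM per kb, and H2ac11 and H2bc11 had 0.117 and 1.89 CPM per kb. The pairs H2ac13 with H2bc13, H2ac15 with H2bc15 and H2ac7 with H2bc7 had 0.0645 and 0.444, 0.448 and 1.59, and 0.159 and 0.902 CPM per kb. The means of H2ac12 (0.0114 CPM) and H2ac13 (0.0253 CPM) lay below the limit set by 3 reads, and a median of 20.7% of the 50-base windows of an H2A gene's transcripts were found in no other gene, against 48.3% for H2B. In the other 5 pairs at least 1 gene spanned 1000 bases or more. Per kilobase of the whole span, with any introns, the H2B gene was the higher of the 2 in all 10 libraries for H2ac6 with H2bc4. It was the higher in 5 for Hist1h2ao with Hist1h2bq, in 2 for Hist1h2an with Hist1h2bp, and in 0 both for Hist1h2ap with Hist1h2br and for H2ac20 with H2bc21. Hist1h2bq spans 3586 bases and Hist1h2br 3788, but their annotated transcripts have at most 1254 and 1256 bases. The counts for these 5 pairs therefore depend on the span and are not read as a comparison of levels.

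Many histone genes share most of their sequence, which limits what a value for 1 gene means. Of the 50-base windows of each gene's transcripts, a median of 50.3% were found in no other gene, 31 of the 63 rows had fewer than 50% of their windows to themselves, and H2ac19 had none. A read counted once gives a value that is a whole multiple of the library's step. For values of 0.5 to 200 reads this held, within 0.05 of a read, for 87 of 418 values of the histone rows (20.8%) against 87.1% of the values of all other genes. A tolerance of 0.05 would pass 10% of values spread evenly. The 6 rows with only unique windows gave 32 whole values of 32, the 26 rows with at least 50% unique windows 21 of 138 (15.2%), and the 31 others 34 of 248 (13.7%). The 32 values came from H1f1, H1f5, H1f6 and H1f10, while H1f0 and H2bc21 gave none in this range. No core histone gene with only unique windows was therefore checked. The share of whole values was 100% in H1, 24.6% in H2A, 10% in H2B, 8.99% in H3 and 6.67% in H4. The sources used here do not say how reads that match several genes were counted, so the value of a gene that shares windows is uncertain. Among the core histone genes, H2bc21 had only unique windows. Some rows also overlap a noncoding row on the same strand, H2ac18 with Gm20634 (6.27 CPM) and H2bc18 with Gm42743 (1.05 CPM), and H2ac19, H2ac18, H2bc18, H3c13 and H4c2 overlap one on the other strand, and the strand setting of the counting is not stated.

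**Figure D2:**
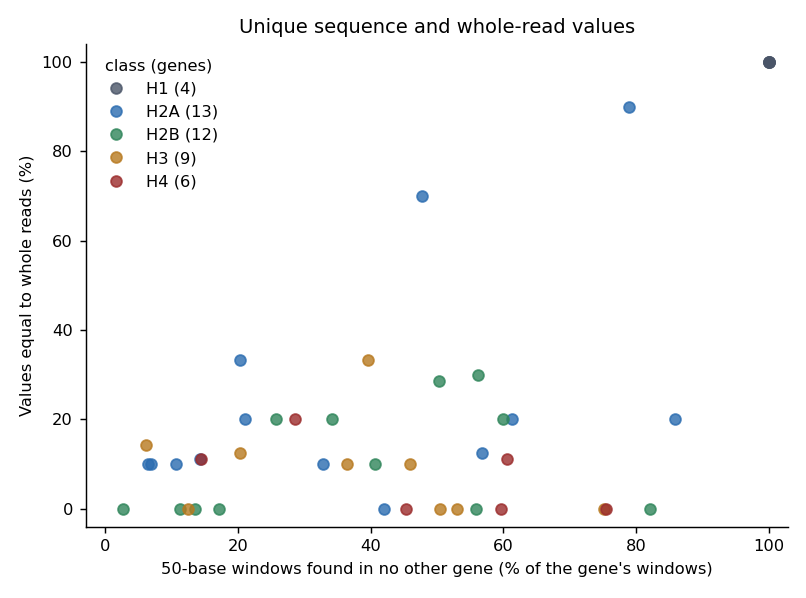
Each point is 1 of the 44 histone genes with at least 5 values of 0.5 to 200 reads, by its share of 50-base windows found in no other gene (x axis) and the share of its values equal to whole reads (y axis). The 4 H1 genes lie together at 100% on both axes, and the core histone genes lie below 40% on the y axis apart from H2ac15 and H2ac21.

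In 4 pairs the genes shared over 80% of their windows both ways. In the pair Hist1h2ao and Hist1h2ap the first gene held 55.1% of the pair's CPM in 4 libraries, the left eye of animal 61 and the right eyes of animals 61, 64 and 66, to within 1 part in 10000. In the other 6 libraries its share was 5.97% to 37.9%. The sum of the pair ranged from 0.310 to 1.54 CPM. For Hist1h4m and Hist1h4n the share of the first gene ran from 47.3% in the left eye of animal 65 to 91.8% in the right eye of the same animal. Their sum measured 5.19, 5.93, 3.93, 6.21 and 5.81 CPM in the left eyes of animals 61, 64, 65, 66 and 68 and 3.43, 4.78, 5.47, 4.08 and 6.80 CPM in the right eyes. The sum varied less between libraries than either gene, with a coefficient of variation of 21.2% against 31.7% for Hist1h4m and 37.2% for Hist1h4n. For Hist1h2bq and Hist1h2br the same figures were 29.6% for the sum and 36.4% and 41.0% for the genes. The sum of a pair whose genes vary independently can also have a lower coefficient than each gene. Whether reads moved between the genes of a pair was not tested. H2ac18 held 0.791% to 7.02% of its sum with H2ac19, which ranged from 12.4 to 22.9 CPM.

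**Figure D3:**
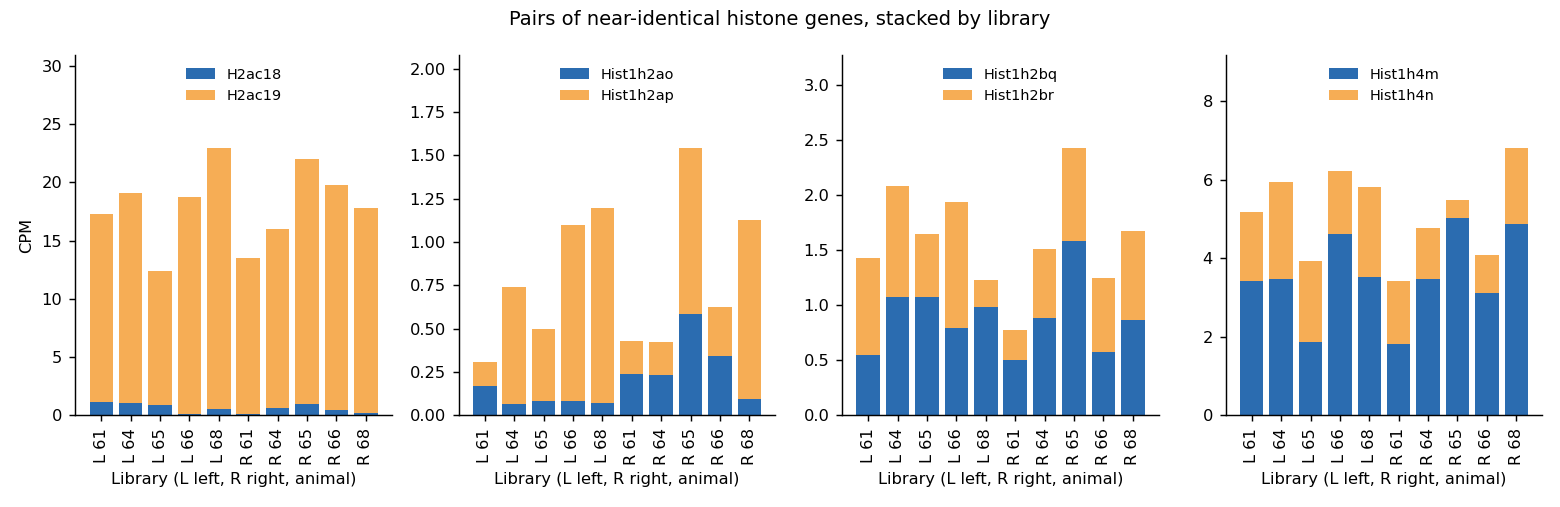
CPM of the 4 near-identical pairs stacked by library (L left eye, R right eye, with the animal number), the first gene of each pair in blue and the second in orange. The blue share of Hist1h4m is 91.8% in the right eye of animal 65 and 47.3% in its left eye. The sum varies less between libraries than either gene in each of the 4 pairs, which can also hold for genes that vary independently.

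Over the whole set, the summed CPM of the 61 genes was 199, 230, 173, 232 and 228 in the left eyes of animals 61, 64, 65, 66 and 68 and 186, 201, 255, 206 and 267 in the right eyes. The left and right groups overlapped, with means of 212 ± 26.0 and 223 ± 35.4 CPM (SD, n = 5 each). The sum was higher in the right eye in 2 of 5 animals, at 1.47 times the left in animal 65 and 1.17 times in animal 68, and lower in the other 3, at 0.875 to 0.938 times. Highest in histone messages were the right eyes of animals 68 and 65. That of animal 68 was also the library highest in rod markers, but its lens markers, at 158 CPM, lay below the median of 232 CPM. That of animal 65 was highest in lens markers and lowest in surface epithelium markers (114 CPM), but its rod markers, at 261 CPM, lay below the median of 298 CPM. The left eye of animal 65, lowest in histone messages, had the lowest share of listed genes. Its rod markers, at 790 CPM, were above those of all libraries but the right eye of animal 68. The part of these in the sums was not tested. By class, the ratio of the right eye to the left ran from 0.718 to 1.93 for the H3 sum, 0.817 to 1.79 for H2A, 0.816 to 1.55 for H4, 0.905 to 1.30 for H1 and 0.908 to 1.28 for H2B. In each of the 5 classes the ratio was highest in animal 65.

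**Figure D4:**
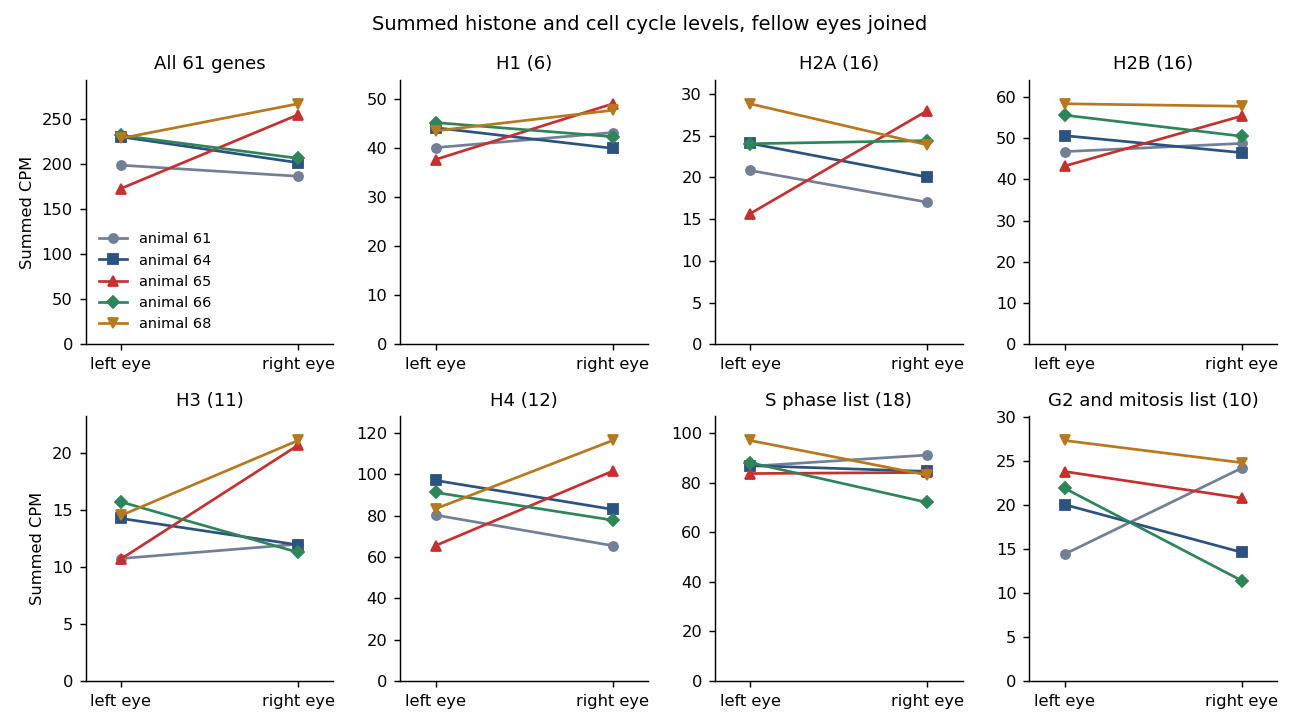
Summed CPM of all 61 replication-dependent histone genes, of each class, and of the S phase and the G2 and mitosis lists, with the left and right eye of each of the 5 animals joined. The histone sum is 173 CPM in the left and 255 CPM in the right eye of animal 65, where the S phase sum is 83.7 and 84.1 CPM.

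The comparison of right with left eyes asked whether any histone gene differed by side, on average over the animals. Since the labels do not give the side of the lens, it does not measure the difference between lens and fellow eyes. With animal as a block, limma called 0 of 28 histone genes at an adjusted p of 0.05 and 0 of 15414 genes in all (0% higher and 0% lower). The 28 genes had a mean of at least 1 CPM, 2 of them are older symbols, and the other 33 were not tested. At an unadjusted p under 0.05 there were 2 of 28 histone genes, 1 of them an older symbol, against 2.79% of all genes tested. The 95% interval of the difference lay within a 2-fold change for 27 of the 28 genes, and for 95.8% of all genes tested. The interval thus left out a mean right-minus-left change of that size for 27 genes. The exception was Hist1h4n.

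Of the 28 genes 21 were higher and 7 lower in the right eyes, with a median difference of 0.08 on the log2 scale, against a median of -0.0079 and 46.0% higher over all genes tested. With each animal left out in turn the median ran from -0.02 without animal 65 to 0.17 without animal 64. Some marker lists of other cell types were also shifted between the sides: 0 of 8 genes of the surface epithelium were higher in the right eyes (median -1.01), while 5 of 5 of the pigmented epithelium (0.19), 6 of 6 of endothelium (0.09) and 6 of 6 of lens (0.25) were. The summed surface epithelium was still 2.42 times as high in the right eye as in the left in animal 61. The summed lens markers were higher in the right eye in 3 of 5 animals. Lists of rods (2 of 6 higher) and melanocytes (2 of 5) were mixed. Of the S phase genes 1 of 12 was higher in the right eyes (median -0.07), of the G2 and mitosis genes 1 of 4 (-0.19) and of the histone chaperones 3 of 11 (-0.02). None of these genes passed the adjusted threshold between the sides, and their part in the histone values was not tested. H3c15, an H3 gene, measured 1.31, 1.25, 0.852, 1.59 and 0.826 CPM in the left eyes of animals 61, 64, 65, 66 and 68 and 1.89, 1.37, 2.18, 1.49 and 1.60 CPM in the right eyes. It was higher in the right eye in 4 of 5 animals, and the groups overlapped. The difference was 0.49 ± 0.20 (log2 of CPM plus a pseudocount of 0.230, ± standard error, 95% interval 0.02 to 0.96), with an unadjusted p of 0.0435 and an adjusted p of 0.9998 in limma. Hist1h4n, given above, was lower in the right eye in 5 of 5 animals, with a difference of -0.70 ± 0.24 (95% interval -1.27 to -0.13), an unadjusted p of 0.0221 and an adjusted p of 0.9998 in limma. The sum of Hist1h4n and Hist1h4m was higher in the right eye in 2 of 5 animals. The difference of Hist1h4n was -0.44 without animal 65 and -0.85 without animal 61. The next smallest p among genes higher in the right eyes belonged to H4c2, with 0.26 ± 0.17 (95% interval -0.13 to 0.65), and among genes lower there to H2bc21, with -0.13 ± 0.12 (95% interval -0.41 to 0.16). The difference of H2bc21 was -0.25 without animal 64, -0.04 without animal 66 and -0.08 without animal 68.

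By class, the 5 H3 genes tested were all higher on average in the right eyes, with a median difference of 0.21, and 7 of 10 H4 genes were, with a median of 0.10. The H3 sum was higher in the right eye in 3 of 5 animals, at 1.93 times the left in animal 65, but 0.837 times in animal 64 and 0.718 times in animal 66. H3c6 alone was higher there in 2 of 5 animals. The H3 genes share sequence (a median of 39.6% of windows found in no other gene), so their values are not independent. The 5 H1 genes split 3 to 2 (median 0.07), the 6 H2B genes 4 to 2 (median 0.04), and both H2A genes were higher in the right eyes (0.01 for H2ac19 and 0.15 for H2ac20). No class median was tested. H1f0 differed by 0.08 ± 0.08.

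**Figure D5:**
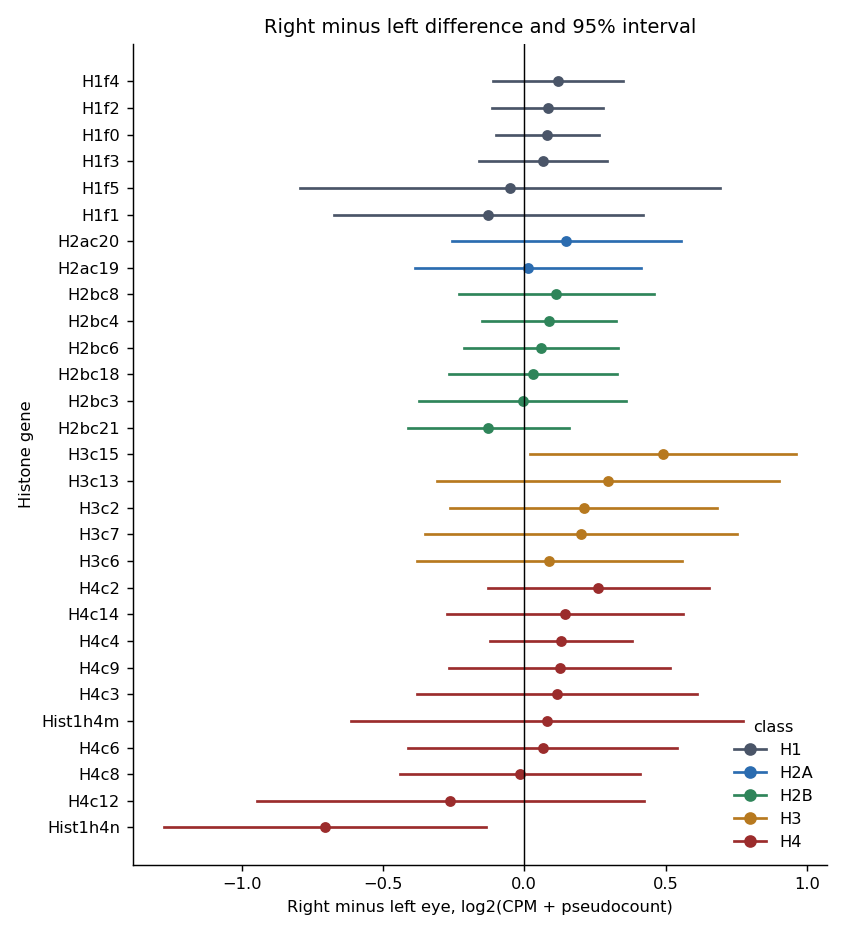
Right-minus-left difference on the log2(CPM + pseudocount) scale with its 95% interval from limma for the 28 replication-dependent genes tested and H1f0, coloured by class. The intervals of H3c15 and Hist1h4n leave out 0 before adjustment for the number of genes, and the other 27 include it.

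Animals were compared by the F test of the animal terms in the same limma fit. Of the 28 histone genes 0 passed an adjusted p of 0.05 (smallest 0.5874, for H4c2), against 13 of all genes tested (0.0843%). At an unadjusted p under 0.05 there were 3, H4c2, H2bc3 and H2bc8, against 7.22% of all genes tested. H4c2 measured 0.615, 0.721, 0.746, 0.975 and 1.26 CPM in the left eyes of animals 61, 64, 65, 66 and 68 and 0.598, 0.722, 1.15, 1.12 and 2.14 CPM in the right eyes. Both eyes of animal 68 were the highest of their side for H4c2, H2bc3 and H2bc8. The coefficient of variation over the 10 libraries had a median of 26.0% in the histone genes tested and of 11.1% in all genes tested. The 2 sets were not matched for level or for shared sequence. Among the histone genes with more reads it was 8.41% in H1f2 and 12.9% in H4c4, but 32.1% in H4c3. In H1f1, with only unique windows and a mean of 2.69 CPM, it was 37.0%.

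Genes that act on histone messages and proteins ranged less between libraries than the histone sum, whose highest value was 1.54 times the lowest. The 13 genes of histone message transcription and processing summed to 204 to 218 CPM (1.07 times), led by Pou2f1, a factor that binds the octamer, at 44.3 CPM and Sympk, a scaffold of the cleavage complex, at 35.0 CPM, with Slbp, the stem-loop binding protein, at 10.6 CPM and Npat, the coactivator of histone genes, at 18.5 CPM. Of the 12 tested, 0 passed the adjusted threshold for side or animal and 6 were higher in the right eyes. The 13 histone chaperone genes summed to 353 to 379 CPM, led by Atrx (156 CPM) and Rbbp7 (51.6 CPM), and 0 of 11 tested passed. The 11 replacement histones and their kin, H1f0 and H1f10 included, summed to 319 to 355 CPM, led by H3f3b (127 CPM) and H3f3a (100.3 CPM), both encoding H3.3, and 0 of 10 passed.

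The cell cycle lists are set beside the histone sums because histone messages accumulate in S phase. The 18 S phase genes, led by Rrm1 (14.9 CPM) and Pcna (14.6 CPM), summed to 86.6, 86.9, 83.7, 88.1 and 97.0 CPM in the left eyes of animals 61, 64, 65, 66 and 68 and to 91.1, 84.5, 84.1, 72.0 and 83.1 CPM in the right eyes, with 0 of 12 tested past the adjusted threshold. The 10 G2 and mitosis genes, led by Mki67 (8.51 CPM) and Top2a (4.38 CPM), summed to 11.4 to 27.3 CPM, lowest in the right eye of animal 66, with 0 of 4 past it. In animal 65 the histone sum was 1.47 times as high in the right eye as in the left, the S phase sum 1.01 times and the G2 and mitosis sum 0.873 times. In animal 68 the corresponding ratios were 1.17, 0.856 and 0.908 times. All 3 sums were lower in the right eye in animal 64, at 0.875, 0.973 and 0.730 times, and in animal 66, at 0.890, 0.818 and 0.520 times. In animal 61 the histone sum stood at 0.938 times, the S phase sum at 1.05 times and the G2 and mitosis sum at 1.68 times.

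A further 3 rows carry Hist names in GENCODE M21 but match neither naming pattern. H2aw ranged from 15.6 to 19.3 CPM, H4f16 from 5.57 to 11.8 CPM and H2bu2 from 0.194 to 0.902 CPM. They enter no count or sum above.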

How the data were processed

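Total RNA of 10 libraries was sequenced after depletion of ribosomal RNA, per the labels' protocols, which speak of retinae in the extraction step although the tissue is labelled RPE/choroid/sclera. STAR and Partek and the build GRCm38 (mm10) are named per the submitters' processing notes, and the sources used here do not state versions, annotation release, strand setting or the treatment of reads with several matches. The deposited values are CPM of the library total, to which the authors added an offset of 1e-04, removed here. Low values fell on whole reads for 88.9% to 89.8% of genes, so no count test was run.

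The values were tested with limma 3.58.1 in R 4.3.3 on log2(CPM + 0.230), over genes whose mean was 1 CPM or more, with animal as a block, an intensity trend and Benjamini-Hochberg adjustment over all 15414 genes. Animals were compared by the moderated F test of the animal terms. Fellow eyes come from the same animal, and the correlation of their deviations from the side means was 0.272, 0.113, 0.0536, -0.189 and -0.0547 in animals 61, 64, 65, 66 and 68. The fit left 4 residual degrees of freedom and was tested on simulated data. Depth, 66889400 to 94239100 reads, was read from the step between low values.

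The members and lists were chosen with earlier results of these data known. Named were the 5 genes of each class with the highest mean, those past a threshold, the 2 with the smallest p in each direction and the 2 highest of each companion list. Other histone genes, Slbp, Npat and the overlapping noncoding rows were named after their values were seen. Stem-loops came from GENCODE M21 transcripts, promoters from RefSeq GRCm38.p6, and protein sequences were not used here. Scaling, pseudocount, filter, moderation, block and left-out libraries were varied.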

Additional observations from a re-analysis of the deposited data

Results flagged for a closer look

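Within groups of 5 eyes, the sample at either end was set against the gap that Dixon's test allows, in 80 groups of named genes, older symbols and class sums. In 4 groups the gap was wider, and chance alone marks about 1 in 20 groups. H1f4 was highest among the right eyes in animal 65, at 17.4 CPM, with the other right eyes at 13.5 to 14.2 CPM. H2bc3 was highest among the right eyes in animal 68, at 4.63 CPM, with the others at 2.14 to 2.61 CPM. H3c2 was lowest among the left eyes in animal 61, at 0.555 CPM, with the others at 1.22 to 1.45 CPM. Hist1h2ao was highest among the left eyes in animal 61, at 0.171 CPM, with the others at 0.0636 to 0.0841 CPM. The last is one of the 4 libraries in which Hist1h2ao held 55.1% of its sum with Hist1h2ap.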

How the results depend on the processing

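No histone gene and no other gene passed the adjusted threshold between right and left eyes under any of 23 alternatives, the smallest adjusted p of a histone gene being 0.940, and no histone gene passed it between animals (smallest 0.285), in the alternatives with an animal term, which the fit with no replicate block lacks. The fit with no replicate block, which ignores the pairing of fellow eyes, also called 0 histone genes and 0 genes in all, with 434 genes at an unadjusted p under 0.05 against 430. The count of all genes that differed between animals was 13, and 5 to 10 when an animal or a library was left out, with fewer samples in the fit. It was 15 under median-of-ratios scaling, 17 when scaled to the sum of listed genes, 18 with robust moderation and 11 with a filter of 5 CPM. The median difference of the histone genes tested was -0.02 to 0.17 on the log2 scale over the same omissions. Of the 24 named genes tested, 10 kept their sign throughout, with Hist1h4n at -0.85 to -0.44 (-0.46 with a pseudocount of 1 CPM) and H2bc21 at -0.25 to -0.04. In the others the right-minus-left difference crossed 0 when an animal or a library was left out: H1f3 (-0.0015 to 0.096), H1f2 (-0.0021 to 0.14), H1f1 (-0.26 to 0.14), H1f0 (-0.0062 to 0.12), H2ac20 (-0.026 to 0.25), H2ac19 (-0.20 to 0.10), H2bc4 (-0.032 to 0.14), H2bc3 (-0.12 to 0.11), H2bc18 (-0.034 to 0.15), H3c6 (-0.094 to 0.24), H4c9 (-0.011 to 0.29), H4c8 (-0.20 to 0.13), H4c3 (-0.095 to 0.28) and H4c14 (-0.0018 to 0.29), on the log2 scale. That of H2bc3 was also 0.0088 under median-of-ratios scaling, against -0.0053. The cause was not tested. Depth limits genes near the 3-read level of 0.0318 to 0.0449 CPM, and reads shared between near-identical genes limit the core histone values at any depth.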
